A study of Danio rerio with 16 samples.

Results

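Fibronectin, tenascin C and periostin are glycoproteins of the extracellular matrix that are laid down in healing tissue, and their genes were followed here in the adult zebrafish ventricle after cryoinjury. They are 5 Ensembl gene IDs among the 32520 of the deposited table, chosen by ID: 2 with the symbol FN1 (ENSDARG00000019815, called the first FN1 gene below, and ENSDARG00000006526, the second FN1 gene), 2 with the symbol TNC (ENSDARG00000021948, the first TNC gene, and ENSDARG00000078362, the second TNC gene) and 1 with the symbol POSTN (ENSDARG00000043806). The symbol table does not tie these IDs to the zebrafish paralog names fn1a, fn1b, tnca, tncb, postna and postnb, so IDs are used throughout. A further ID with the symbol POSTN, ENSDARG00000104267, is not among the 5. It is given beside POSTN for comparison, a choice made after its values were seen, and is called the other POSTN gene.

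Messenger RNA was sequenced from 16 libraries, each made from 3 pooled ventricles. Wild-type fish of the AB (Oregon) strain were compared with fish of the ankrd1abns502 line, whose ankrd1a gene was mutated with CRISPR/Cas9. The protein it encodes has ankyrin repeats and is found in striated muscle. In the cryoinjured groups a probe cooled in liquid nitrogen touched the apex of the ventricle for 25 s, and in the sham groups the same operation was done with a probe at room temperature; all fish then recovered for 7 days. The 4 groups of 4 libraries are therefore wild-type sham, wild-type injured, mutant sham and mutant injured fish; the age and sex of the fish are not given, nor is the strain background of the mutant line. The mutation and any other difference between the mutant line and AB cannot be told apart.

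Fibronectin is an early provisional matrix protein that cells bind through integrins and on which other matrix proteins are assembled. Tenascin C is a matricellular protein, one that alters how cells hold on to the matrix rather than bearing load, and it typically appears at wound borders. Periostin is a matricellular protein of activated fibroblasts that binds collagen and fibronectin and promotes collagen crosslinking. In the zebrafish heart, fibronectin is known to be made by epicardial cells, the outer cell layer of the heart, after injury, and periostin marks activated fibroblasts of the transient scar.

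Total counts ranged from 5623721 to 12254719 per library, and no pair of libraries of a group agreed within sampling noise. The symbol ANKRD1 belongs to 2 IDs, which are not tied to ankrd1a or its paralog. ENSDARG00000075263 averaged 1.77 ± 1.88 counts per 1000000 counts after TMM scaling (CPM) in wild-type sham fish, 23.8 ± 15.6 in wild-type injured fish, 0.480 ± 0.306 in mutant sham fish and 23.0 ± 8.35 in mutant injured fish (SD, n = 4), and ENSDARG00000076192 did not exceed 0.499 in any library, so RNA levels do not check the genotype labels. Libraries of a group come from separate pools as far as the labels say, without naming tanks or clutches; p-values measure the spread between such pools. Markers of cardiomyocytes made up the most abundant of the marker lists, and in every library the fibroblast list was above 0.

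Injury raised both FN1 genes, the first TNC gene and POSTN in both genotypes, whereas the second TNC gene did not pass the test in either. In wild type 4 of the 5 genes were called higher by the quasi-likelihood test of edgeR at a Benjamini-Hochberg adjusted p below 0.05 over 14986 tested genes, against 13.9% of all tested genes called higher. In mutants 4 of 5 were called higher, against 16.5% of all tested genes; in either direction edgeR called 25.3% of all tested genes in wild type and 28.9% in mutants. All 5 passed the filter on low counts. In wild type 4 of 5 genes also had all injured libraries above all sham libraries, against 14% of all tested genes in that direction and 26.1% in either. In mutants this held for 4 of 5, against 15.8% and 29.2%. The 5 genes and the gene lists below were chosen with earlier results of these data known. Their counts against all tested genes are therefore a description. Values per library are CPM, scaled by TMM, the trimmed-mean correction of edgeR for library composition; they are not divided by gene length and are therefore compared between groups and not between genes.

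**Figure D1:**
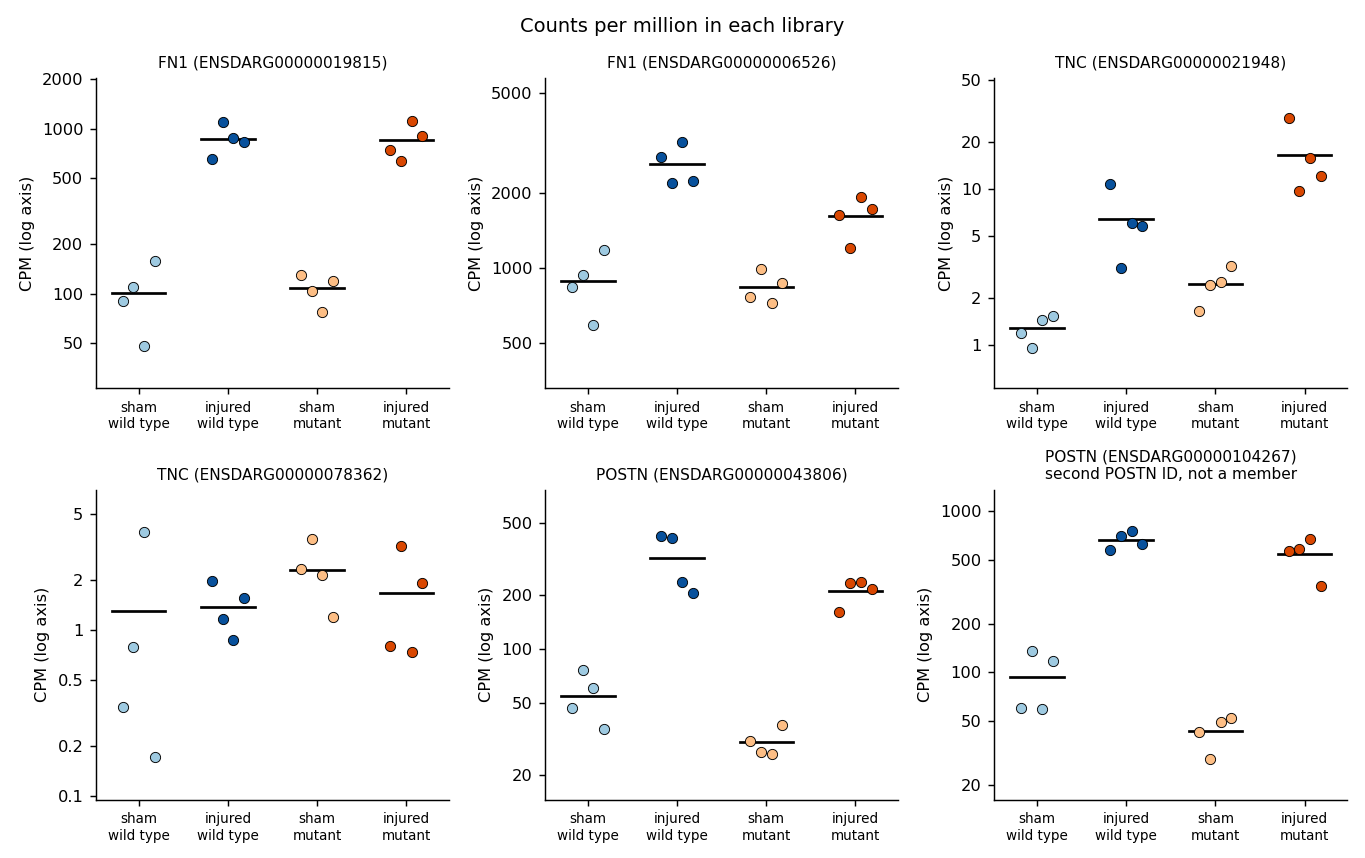
Scaled counts per 1000000 counts (CPM, log axis) of the 5 genes and of the other POSTN gene in each of the 16 libraries; points are libraries and bars are group means of 4. The injured libraries lie above all sham libraries of their genotype for both FN1 genes, the first TNC gene and both POSTN genes, while the second TNC gene overlaps in all 4 groups.

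The first FN1 gene showed the largest fold rise of the 5 in both genotypes. In wild-type sham fish its replicates 1 to 4 had 90.1, 109, 47.9 and 157 CPM, and in wild-type injured fish 650, 1093, 876 and 833 CPM. In mutant sham fish they had 130, 103, 77.7 and 118 CPM, and in mutant injured fish 737, 636, 1119 and 906 CPM. Every injured library was therefore above every sham library, and the genotypes overlapped in both treatments. The means were 101 ± 45.3 in wild-type sham fish, 107 ± 22.7 in mutant sham fish, 850 ± 211 in mutant injured fish and 863 ± 182 in wild-type injured fish (SD, n = 4). By edgeR the rise was 8.53-fold in wild type, or 3.09 on the log2 scale (SE 0.29, adjusted p = 2.31e-06). In mutants edgeR gave 7.91-fold, or log2 2.98 (SE 0.29, adjusted p = 2.50e-06). The 2 sham groups stand next to each other in the order of levels, as do the 2 injured groups, and neither pair differed beyond its spread: the mutant over wild-type log2 fold change was 0.09 in sham fish (edgeR adjusted p = 0.912) and -0.02 in injured fish (edgeR adjusted p = 0.981).

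The second FN1 gene was already at 593 CPM or more in every sham library and rose less. Its sham wild-type libraries had 837, 935, 593 and 1181 CPM, and its injured wild-type libraries 2784, 2186, 3189 and 2231 CPM. Its sham mutant libraries had 766, 991, 722 and 872 CPM, and its injured mutant libraries 1622, 1199, 1917 and 1714 CPM. Sham and injured libraries did not overlap within a genotype, and the highest injured mutant library was below the lowest injured wild-type library. The group means were 838 ± 120 in mutant sham fish, 886 ± 243 in wild-type sham fish, 1613 ± 302 in mutant injured fish and 2597 ± 479 in wild-type injured fish (SD, n = 4). The edgeR fold change was 2.93 in wild type (log2 1.55, SE 0.20, adjusted p = 3.55e-05) and 1.92 in mutants (log2 0.94, SE 0.20, adjusted p = 0.00177). Injured mutants differed from wild type by -0.69 on the log2 scale (SE 0.20), which missed the threshold in edgeR (adjusted p = 0.0740), whereas DESeq2 called it (adjusted p = 0.0380), as did edgeR without sham wild-type replicate 3 (adjusted p = 0.0489). In sham fish the same difference was -0.08 (edgeR adjusted p = 0.877). The test of whether injury acted differently in the genotypes gave a log2 interaction of -0.61 (SE 0.28, edgeR adjusted p = 0.629).

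The first TNC gene was scarce in sham hearts and rose after injury. It was counted 6 to 9 times per library in wild-type sham fish and 27 to 88 times in wild-type injured fish, 12 to 32 times in mutant sham fish and 58 to 212 times in mutant injured fish. In CPM the sham wild-type libraries had 1.20, 0.953, 1.44 and 1.54, and the injured wild-type libraries 10.9, 3.14, 6.08 and 5.81. The sham mutant libraries had 1.66, 2.44, 2.54 and 3.19 CPM, and the injured mutant libraries 28.4, 9.78, 15.8 and 12.1 CPM. Injured libraries were above all sham libraries of the same genotype, and all 4 sham mutant libraries were above all 4 sham wild-type libraries. The means rose in the order wild-type sham, 1.28 ± 0.261, mutant sham, 2.46 ± 0.626, wild-type injured, 6.47 ± 3.21, and mutant injured, 16.5 ± 8.30 CPM (SD, n = 4). The edgeR injury effect was 5.02-fold in wild type (log2 2.33, SE 0.43, adjusted p = 0.000703) and 6.62-fold in mutants (log2 2.73, SE 0.38, adjusted p = 6.00e-05).

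The second TNC gene stayed near the limit of what these libraries count. It had at most 25 counts in any library. Its sham wild-type libraries had 0.342, 0.794, 3.91 and 0.171 CPM and its injured wild-type libraries 1.97, 1.16, 0.868 and 1.56 CPM. Its sham mutant libraries had 2.36, 3.57, 2.15 and 1.20 CPM and its injured mutant libraries 0.804, 3.21, 0.739 and 1.93 CPM. All groups overlapped. The log2 injury effects were 0.17 (SE 0.69, edgeR adjusted p = 0.890) in wild type and -0.47 (SE 0.63, edgeR adjusted p = 0.614) in mutants. At this depth only changes well above those standard errors could have been detected.

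POSTN rose in both genotypes. Its sham wild-type libraries had 47.2, 76.7, 61.1 and 36.2 CPM, and its injured wild-type libraries 423, 410, 235 and 205 CPM. Its sham mutant libraries had 31.0, 27.0, 26.4 and 37.8 CPM, and its injured mutant libraries 160, 231, 234 and 216 CPM. Sham and injured libraries did not overlap. Between genotypes 1 sham mutant library was above 1 sham wild-type library, and in injured fish all mutant libraries were below 235 CPM, while the wild-type libraries fell into a pair at 410 CPM or more and a pair at 235 CPM or less. The means were 30.5 ± 5.27 in mutant sham fish, 55.3 ± 17.5 in wild-type sham fish, 210 ± 34.8 in mutant injured fish and 318 ± 114 in wild-type injured fish (SD, n = 4). By edgeR injury raised it 5.75-fold in wild type (log2 2.52, SE 0.26, adjusted p = 4.80e-06) and 6.87-fold in mutants (log2 2.78, SE 0.26, adjusted p = 1.97e-06). The interaction was 0.25 (SE 0.35, edgeR adjusted p = 0.898).

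The other POSTN gene had 60.2, 136, 58.8 and 118 CPM in wild-type sham fish and 578, 704, 756 and 630 CPM in wild-type injured fish. In mutant sham fish it had 42.7, 29.1, 49.0 and 52.4 CPM, all below every sham wild-type library, and in mutant injured fish 568, 583, 676 and 343 CPM. Its edgeR injury effect was 7.13-fold in wild type (log2 2.83, SE 0.28, adjusted p = 3.48e-06) and 12.5-fold in mutants (log2 3.65, SE 0.29, adjusted p = 4.69e-07). The pair of POSTN genes thus rose together after injury in these libraries, but within groups their deviations from the group mean were nearly unrelated (r = 0.07 over 16 libraries, a description). The library that was highest for POSTN in wild-type injured fish, replicate 1, was the lowest there for the other POSTN gene.

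**Figure D2:**
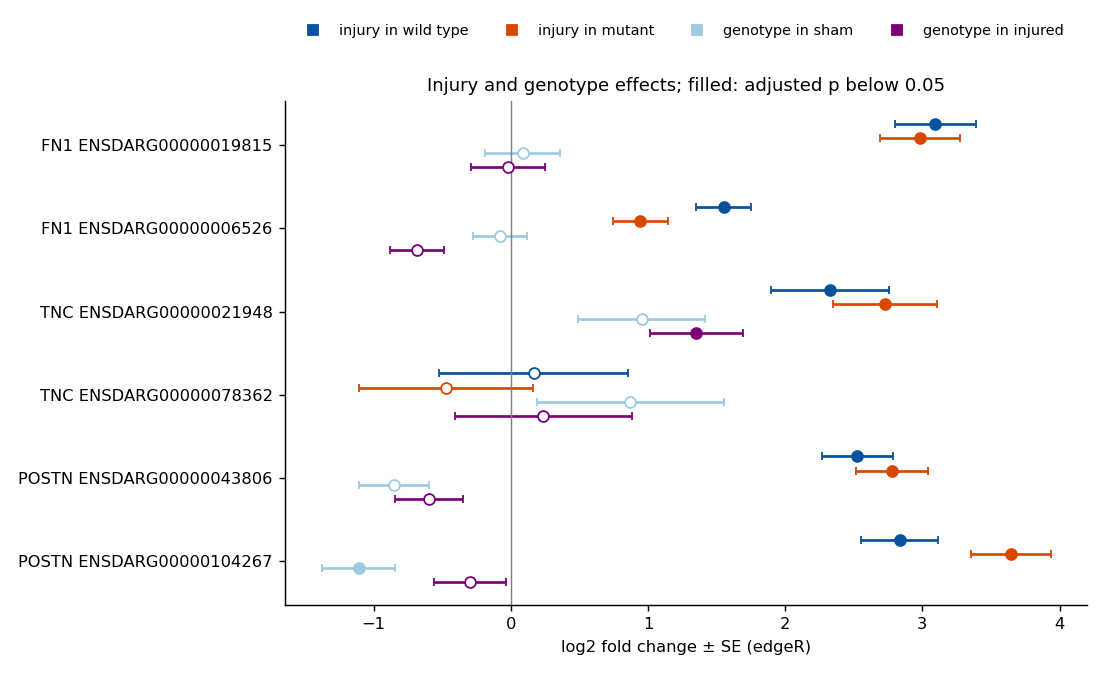
Log2 fold changes from edgeR with their standard errors for the 5 genes and the other POSTN gene, by contrast; filled points have an adjusted p below 0.05. Injury effects lie between 0.94 and 3.65 except for the second TNC gene, and genotype effects lie between -1.11 and 1.35.

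For both FN1 genes, the first TNC gene and POSTN the log2 genotype effect was smaller in size than the injury effect of the same gene in both genotypes, and most genotype effects did not pass the test. The second TNC gene passed no test, and its log2 genotype effect in sham fish was 0.87 (SE 0.68, edgeR adjusted p = 0.526). In sham fish 0 of the 5 genes were called between mutants and wild type, against 5.81% of all tested genes; 1 of 5 had an unadjusted edgeR p below 0.05, against 19.9%, and DESeq2 called 1 of 5, against 6.91% of the genes it gave an adjusted p. In injured fish 1 of 5 was called, as higher in mutants, against 1.12% of all tested genes called higher and 2.56% called in either direction, and 3 of 5 had an unadjusted edgeR p below 0.05, against 16%. For the interaction edgeR called 0 of 5 genes and 0 of all tested genes; 1 of 5 had an unadjusted p below 0.05, against 7.71%, and DESeq2 called 0 of 5 and 43 genes in all, or 0.293%. By overlap, 1 of 5 genes had all mutant libraries above all wild-type libraries in sham fish, against 6.66% of all tested genes in that direction and 13.8% in either. In injured fish 0 of 5 had all mutant libraries above, against 3.67%, and 1 of 5 had all of them below, against 4.36%, with 8.03% in either direction. These contrasts share libraries with the injury contrasts, so their values are not independent of each other.

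The gene called in injured fish was the first TNC gene, 2.55-fold higher in mutants (log2 1.35, SE 0.34, edgeR adjusted p = 0.0412). The lowest injured mutant library, at 9.78 CPM, was below the highest injured wild-type library, at 10.9 CPM, so the groups overlapped. The call was lost in 10 of 16 fits that each left out 1 library, where the adjusted p reached 0.149 and the log2 fold change ranged from 0.96 to 1.72; without injured mutant replicate 1, the highest library, it was 0.96. It was also lost when only the 8 injured libraries entered the fit (edgeR adjusted p = 0.129). In sham fish the same gene was 1.94-fold higher in mutants (log2 0.95, SE 0.47, edgeR adjusted p = 0.263); those libraries did not overlap.

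POSTN was lower in mutants in both treatments without passing the test in either: the log2 difference was -0.85 in sham fish (SE 0.25, edgeR adjusted p = 0.0563) and -0.60 in injured fish (SE 0.24, edgeR adjusted p = 0.23). DESeq2 called the difference in sham fish (adjusted p = 0.0259), as did edgeR on the sham libraries alone (adjusted p = 0.0368). The other POSTN gene was 2.16-fold lower in mutant sham fish, or log2 -1.11 (SE 0.27, edgeR adjusted p = 0.0195); without 1 library the call was lost in 4 of 16 fits, with an adjusted p of up to 0.0819. In injured fish its genotype effect was log2 -0.30 (SE 0.26, edgeR adjusted p = 0.618), and its interaction was 0.81 (SE 0.37, edgeR adjusted p = 0.629).

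The genotype effect averaged over both treatments was added after these values were seen. In it 2 of the 5 genes were called, against 11.1% of all tested genes: 1 was higher, against 5.1% of all tested genes, and 1 was lower, against 6.01%. The first TNC gene was 2.22-fold higher in mutants (log2 1.15, SE 0.29, edgeR adjusted p = 0.0138). POSTN was 1.65-fold lower (log2 -0.72, SE 0.18, edgeR adjusted p = 0.0120). Both calls held in all 16 fits that left out 1 library, with adjusted p of up to 0.0379 for the first TNC gene and 0.0316 for POSTN. The other POSTN gene was 1.63-fold lower (log2 -0.70, SE 0.19, edgeR adjusted p = 0.0202), a call lost in 1 of 16 such fits, without sham wild-type replicate 2. The log2 fold change of the first FN1 gene was 0.03 (SE 0.19, edgeR adjusted p = 0.945), that of the second FN1 gene -0.38 (SE 0.14, edgeR adjusted p = 0.0847) and that of the second TNC gene 0.55 (SE 0.47, edgeR adjusted p = 0.508).

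The share of each pair's counts that came from each paralog was compared next, beside the sum over the pair, which does not depend on how reads were divided between paralogs. The counts of the FN1 pair made up 0.0869% ± 0.0271 of all counts in wild-type sham fish and 0.415% ± 0.0353 in wild-type injured fish, 0.0811% ± 0.0120 in mutant sham fish and 0.274% ± 0.0743 in mutant injured fish (SD, n = 4). These percentages are of unscaled counts, so their ratios differ from the TMM-scaled fold changes that follow. Summed, the pair rose 3.51-fold in wild type (log2 1.81, SE 0.20, edgeR adjusted p = 8.56e-06) and 2.61-fold in mutants (log2 1.38, SE 0.20, edgeR adjusted p = 7.83e-05), and in injured fish it differed between genotypes by -0.49 (SE 0.19, edgeR adjusted p = 0.213). The summed TNC pair rose 3.11-fold in wild type (log2 1.64, SE 0.41, edgeR adjusted p = 0.00685) and 3.81-fold in mutants (log2 1.93, SE 0.37, edgeR adjusted p = 0.000867). Between mutants and wild type it differed by log2 1.21 in injured fish (SE 0.35, edgeR adjusted p = 0.0764) and by 1.06 over both treatments (SE 0.27, edgeR adjusted p = 0.0174).

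**Figure D3:**
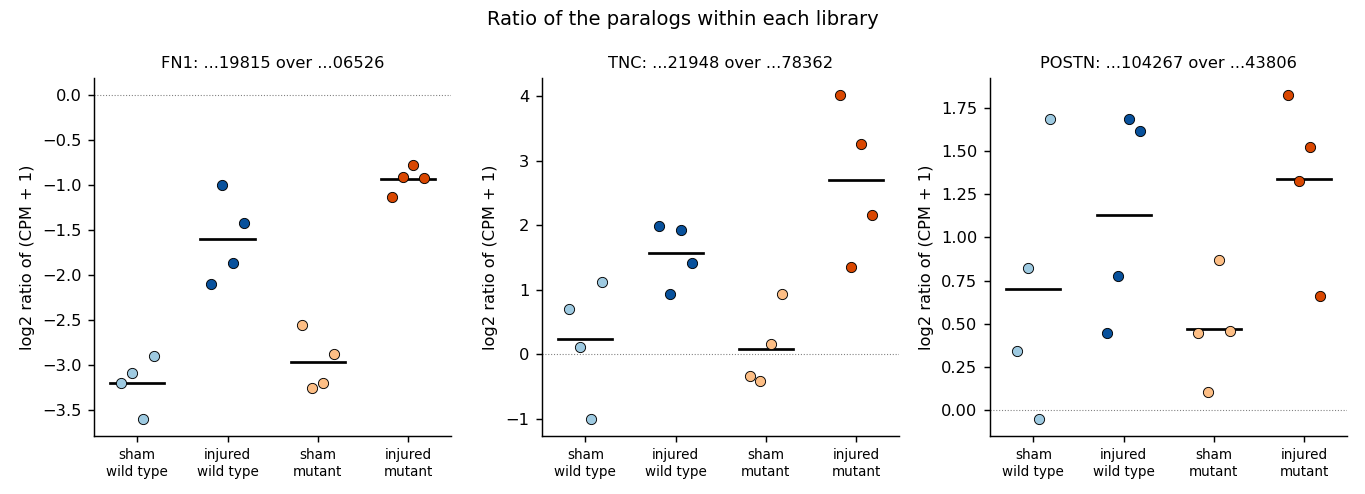
Log2 ratio of CPM + 1 between the genes of each pair in each library; points are libraries and bars are group means of 4. For the FN1 pair all 8 injured libraries lie at -2.10 or above and all 8 sham libraries at -2.55 or below.

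The first FN1 gene supplied 9.85% ± 1.79 of the pair's counts in wild-type sham fish and 11.4% ± 2.37 in mutant sham fish, but 25.3% ± 6.40 in wild-type injured fish and 34.3% ± 2.32 in mutant injured fish (SD, n = 4). The shares are of counts and are not corrected for gene length, so they show a shift between groups and not which paralog has more transcripts. The log2 ratio of the first to the second FN1 gene, on CPM + 1, was -3.20, -3.09, -3.60 and -2.90 in the sham wild-type libraries and -2.10, -1.0, -1.86 and -1.42 in the injured wild-type libraries. In mutant sham fish it was -2.55, -3.26, -3.20 and -2.87, and in mutant injured fish -1.14, -0.91, -0.78 and -0.92. Sham and injured libraries did not overlap in either genotype. The log2 ratio was higher after injury by 1.60 in wild type and by 2.03 in mutants; an exact two-sided permutation test gave p = 0.0286 for each, the smallest that 4 against 4 libraries allow, and 0.0762 after adjustment over the 8 ratio tests planned for the FN1 and TNC pairs.

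With the libraries permuted within genotype, a test added after the values were seen, the rise of the FN1 ratio over both genotypes was 1.82 on the log2 scale (exact permutation p = 0.000408, the smallest its 4900 arrangements can give, and 0.00245 after adjustment over 6 such tests). For the genotype effect the libraries were permuted within treatment instead. By that test the FN1 ratio was 0.44 higher in mutants than in wild type over both treatments (exact permutation p = 0.0241, adjusted 0.0482). In 12 of the 16 repeats without 1 library, however, the adjusted p was above the threshold, up to 0.0820. In injured fish alone the difference between genotypes was 0.66 (exact permutation p = 0.0571, adjusted 0.0914).

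The TNC ratio, first over second gene, was higher after injury by 1.33 in wild type (exact permutation p = 0.0571, adjusted 0.0914) and by 2.62 in mutants (exact permutation p = 0.0286, adjusted 0.0762), and by 1.97 over both genotypes (exact permutation p = 0.000816, adjusted 0.00245). With a pseudocount of 5 in place of 1 these differences were 0.78, 1.60 and 1.19, and the last kept its call (exact permutation, adjusted 0.00122). The low counts of the second TNC gene make single ratios uncertain: they ran from -1.01 to 1.12 in wild-type sham fish. The ratio of the other POSTN gene to POSTN was 0.65 higher after injury over both genotypes (exact permutation p = 0.0416, adjusted 0.0624).

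Markers of several cell types also changed after injury, where edgeR called 13.9% of all tested genes higher in wild type and 16.5% in mutants. Of the 7 tested fibroblast marker IDs, which include collagen genes, 6 rose after injury in each genotype, and their summed level went from 1703 to 2173 CPM in wild-type sham fish to 6654 to 7309 CPM in wild-type injured fish, and from 1685 to 2365 CPM in mutant sham fish to 5259 to 8347 CPM in mutant injured fish. Of 9 tested leukocyte marker IDs 7 rose in wild type and 8 in mutants; their sum went from 58.0 to 103 CPM in wild-type sham fish to 313 to 488 CPM in wild-type injured fish, and from 65.9 to 127 CPM in mutant sham fish to 381 to 691 CPM in mutant injured fish, with 1 ID at 0 in all libraries. Of 5 epicardial marker IDs 4 rose in wild type and 2 in mutants; their sum went from 136 to 269 CPM in sham to 358 to 461 CPM in injured fish of the wild type, and from 114 to 155 CPM to 249 to 398 CPM in mutants. Of 12 cardiomyocyte marker IDs 6 fell and 1 rose in wild type, and 5 fell and 1 rose in mutants, where edgeR called 11.5% of all tested genes lower in wild type and 12.4% in mutants. Of 9 endothelial and endocardial marker IDs 0 rose in either genotype, and 2 fell in wild type and 3 in mutants. Of 8 tested marker IDs of smooth muscle and the bulbus arteriosus, 5 rose in wild type and 7 in mutants, and 0 fell in either. In whole ventricles more cells of a type and more RNA per cell cannot be told apart, and the part of these cell types in the rise of the FN1, TNC and POSTN genes was not tested.

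Some markers also differed between genotypes. Of 9 leukocyte, 12 cardiomyocyte and 9 endothelial and endocardial IDs, 0 were called between genotypes in sham or in injured fish. Over both treatments 1 cardiomyocyte ID was called higher and 1 lower, and 1 endothelial and endocardial ID higher. Of all tested genes 5.1% were called higher there and 6.01% lower. In injured fish edgeR called 1.12% of all tested genes higher in mutants and 1.44% lower, and in sham fish 2.62% and 3.19%. In mutant injured fish the epicardial genes TCF21 (log2 -1.09, SE 0.23, edgeR adjusted p = 0.0141) and TBX18 (log2 -0.93, SE 0.19, edgeR adjusted p = 0.0134) were lower. They were 2 of the 5 tested epicardial IDs, and the other 3 were not called in injured fish. In sham fish 0 of the 5 were called. Over both treatments 3 of the 5 were called lower in mutants, against 6.01% of all tested genes. The summed epicardial list overlapped between genotypes in injured fish, at 358 to 461 CPM in wild type and 249 to 398 CPM in mutants. DCN, a proteoglycan gene of the fibroblast list, was lower as well (log2 -1.0, SE 0.20, edgeR adjusted p = 0.0108), as 1 of the 7 IDs of that list. With the injured libraries alone the calls of TCF21 (edgeR adjusted p = 0.0868) and DCN (edgeR adjusted p = 0.0526) were lost. Without 1 library that of TCF21 was lost in 2 of 16 fits (adjusted p up to 0.0561) and that of TBX18 in 1 of 16 (0.0516). Smooth muscle actin acta2, the only 1 of 8 tested smooth muscle IDs called between genotypes, was higher in mutant injured fish (log2 1.53, SE 0.25, edgeR adjusted p = 0.00278). It was also called higher in mutant sham fish, at log2 1.71 to 1.95 in fits without 1 library. The summed smooth muscle list, with 1 of its 10 IDs at 0 in all libraries, was 239 to 412 CPM in wild-type sham fish, 392 to 552 in mutant sham fish, 456 to 688 in wild-type injured fish and 786 to 1108 in mutant injured fish. Over the 8 tested IDs of that list the median log2 genotype effect was -0.01 in sham fish and 0.23 in injured fish. Of the erythrocyte list, 2 of 3 IDs, the alpha globin genes hbaa1 (log2 -1.90, SE 0.44, edgeR adjusted p = 0.0249) and hbaa2 (log2 -2.08, SE 0.54, edgeR adjusted p = 0.0473), were lower in mutant injured fish. Without 1 library these calls were lost in 5 and 12 of 16 fits, and without injured wild-type replicate 1 the log2 values were -1.29 and -1.08; the genes are close copies, so the division of reads between them is uncertain. The summed list was 1229 to 2511 CPM in wild-type sham fish, 494 to 1083 in mutant sham fish, 1263 to 6781 in wild-type injured fish and 512 to 1492 in mutant injured fish. The summed atrial list was 477 to 896 CPM in wild-type sham fish, 898 to 1917 in mutant sham fish, 819 to 2534 in wild-type injured fish and 2998 to 3644 in mutant injured fish. Its 2 tested IDs went opposite ways in mutant injured fish: MYH6 (ENSDARG00000079564), the more abundant, was higher (log2 1.53, SE 0.35, edgeR adjusted p = 0.0250) and myh6 (ENSDARG00000090637) lower (log2 -2.16, SE 0.51, edgeR adjusted p = 0.0309). Without 1 library these calls were lost in 3 and 5 of 16 fits. MYH6 was also called higher in mutant sham fish, at log2 1.08 to 1.78 without 1 library, a call lost in 3 of 16 such fits. Whether these levels bear on the higher first TNC gene and lower POSTN of mutants over both treatments was not tested.

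Within groups the genes did not vary as 1 block. Over the 16 libraries, deviations from the group mean on the log2 scale had r = 0.67 between the FN1 genes, -0.75 between the first FN1 gene and the second TNC gene, -0.67 between the second FN1 and the second TNC gene, and between -0.25 and 0.33 for the first TNC gene or POSTN against any other of the 5. The second TNC gene had the lowest counts of the set, so its own deviations hold the most counting error. Its largest deviations were 2.00 and -1.25, in sham wild-type replicates 3 and 4, from 19 counts and 1 count. In these libraries the first FN1 gene deviated by -0.95 and 0.76 and the second FN1 gene by -0.54 and 0.46. All these values share libraries and are given as a description.

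The genes with the most similar profile over the 16 libraries were read from 8114 genes with at least 10 CPM in a group, by Pearson's r of log2 CPM, which is set largely by the injury groups. Nearest to the first FN1 gene were SLC43A2, an amino acid transporter gene (r = 0.99), COL5A1 (0.98) and COL1A2 (0.98), genes of fibrillar collagens. Nearest to the second FN1 gene were tmsb2 (0.94), BNC2 (0.94), a zinc finger gene, and COL6A2 (0.94), a collagen VI chain. The first TNC gene was nearest to the keratin gene krt18a.1 (0.95), SIL1 (0.95) and txnb (0.95). POSTN was nearest to BMP6, a bone morphogenetic protein gene (0.97), EML2 (0.97) and THBS1 (ENSDARG00000010785), a thrombospondin gene (0.96). The second TNC gene reached only 0.83 with SMC1A, 0.78 with DPM3 and 0.72 with hirip3.

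Genes whose products belong to the same families, bind these proteins, or assemble the matrix around them were read from the same fit. Among family relatives, TGFBI, a secreted relative of periostin, was the only tested ID: it rose from 14.5 ± 2.17 to 27.2 ± 7.72 CPM in wild type (log2 0.90, edgeR adjusted p = 0.00799) and from 12.0 ± 2.26 to 24.6 ± 6.75 in mutants (log2 1.03, edgeR adjusted p = 0.00303). The other tenascin IDs, TNR, tnn and tnxba, had at most 10, 8 and 4 counts in a library and were not tested.

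Of 13 tested receptor IDs, integrin chains and syndecans that bind these proteins, 6 rose in wild type and 9 in mutants, and 0 fell in either. Of all tested genes edgeR called 13.9% higher in wild type and 16.5% in mutants. The median log2 fold change was 0.54 in wild type and 0.83 in mutants, against 0.01 and -0.01 over all tested genes. The integrin chain ITGA5, named after its values were seen, was not called (log2 -0.23 and 0.63, edgeR adjusted p = 0.622 and 0.117). ITGAV, the alpha chain of vitronectin and fibronectin receptors, rose from 29.1 ± 2.71 to 80.2 ± 7.13 CPM in wild type (log2 1.46, edgeR adjusted p = 1.10e-05) and from 27.2 ± 4.70 to 85.8 ± 17.1 in mutants (log2 1.66, edgeR adjusted p = 2.76e-06). ITGB3 (ENSDARG00000045070), a beta chain that pairs with it, rose from 9.48 ± 2.13 to 37.8 ± 13.4 CPM in wild type (log2 2.00, edgeR adjusted p = 0.000112) and from 30.8 ± 7.17 to 69.8 ± 23.9 in mutants (log2 1.18, edgeR adjusted p = 0.00380). It was the 1 receptor called higher in mutant sham fish (log2 1.71, SE 0.30, edgeR adjusted p = 0.00253). ITGA9, part of a tenascin C receptor, rose from 8.02 ± 1.92 to 16.9 ± 1.09 CPM in wild type (log2 1.07, edgeR adjusted p = 0.000221) and from 7.33 ± 0.465 to 11.5 ± 1.13 in mutants (log2 0.65, edgeR adjusted p = 0.00839).

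Of 19 tested IDs of other matricellular proteins, 12 rose and 0 fell in wild type, and 9 rose and 1 fell in mutants. Their median log2 fold change was 1.19 and 1.20, and 13.9% and 16.5% of all tested genes were called higher. THBS1 (ENSDARG00000010785) rose from 89.0 ± 7.41 to 265 ± 65.7 CPM in wild type (log2 1.57, edgeR adjusted p = 2.16e-05) and from 62.6 ± 8.82 to 220 ± 57.1 in mutants (log2 1.81, edgeR adjusted p = 6.06e-06). The thrombospondin gene thbs2b rose by log2 2.25 in wild type (edgeR adjusted p = 0.00122) and 1.89 in mutants (edgeR adjusted p = 0.00590), and ccn2b, a connective tissue growth factor gene, by 1.73 (edgeR adjusted p = 0.00863) and 1.83 (edgeR adjusted p = 0.00540). The ID that fell in mutants was THBS3 (ENSDARG00000077641), by 0.71 on the log2 scale (edgeR adjusted p = 0.00544), named here after its value was seen.

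Of 20 tested IDs for matrix assembly and crosslinking, 12 rose and 1 fell in wild type, and 13 rose and 0 fell in mutants. Their median log2 fold change was 0.79 and 0.98, and 13.9% and 16.5% of all tested genes were called higher. LOX, the lysyl oxidase that crosslinks collagen, rose from 0.886 ± 0.186 to 14.6 ± 8.16 CPM in wild type (log2 4.03, edgeR adjusted p = 1.11e-05) and from 2.93 ± 1.25 to 29.9 ± 11.1 in mutants (log2 3.30, edgeR adjusted p = 1.10e-05). PLOD2, a lysyl hydroxylase of collagen, rose by log2 2.48 in wild type (edgeR adjusted p = 5.35e-06) and 2.91 in mutants (edgeR adjusted p = 1.34e-06), and LTBP1, a protein that tethers latent TGF-beta to fibronectin-containing matrix, by 2.07 (edgeR adjusted p = 3.41e-05) and 2.7 (edgeR adjusted p = 3.06e-06). The gene that fell in wild type was emilin1a, an elastic fibre protein gene, at log2 -0.77 (edgeR adjusted p = 0.0155), a call lost without a scaling factor (log2 -0.31, edgeR adjusted p = 0.292) and without sham wild-type replicate 2 (edgeR adjusted p = 0.0621). In mutants its value was -0.23 (edgeR adjusted p = 0.456), which turned to 0.16 without a scaling factor.

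Of 15 tested IDs of TGF-beta signalling, a pathway known to induce fibronectin, tenascin C and periostin in mammals, 6 rose and 1 fell in wild type and 5 rose and 1 fell in mutants. Their median log2 fold change was 0.51 and 0.53, and 13.9% and 16.5% of all tested genes were called higher. The receptor gene TGFBR2 (ENSDARG00000059363) rose by log2 2.04 in wild type (edgeR adjusted p = 7.89e-05) and 1.47 in mutants (edgeR adjusted p = 0.000780), and the ligand gene tgfb1b by 0.89 (edgeR adjusted p = 0.000635) and 0.90 (edgeR adjusted p = 0.000484). SMAD3 (ENSDARG00000010207), a signal transducer of the pathway, fell in wild type, at log2 -1.16 (edgeR adjusted p = 0.00404), and its value in mutants was -0.68 (edgeR adjusted p = 0.0614). The ID that fell in mutants was TGFBR2 (ENSDARG00000034541), by 0.75 (edgeR adjusted p = 0.000581), named after its value was seen.

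**Figure D4:**
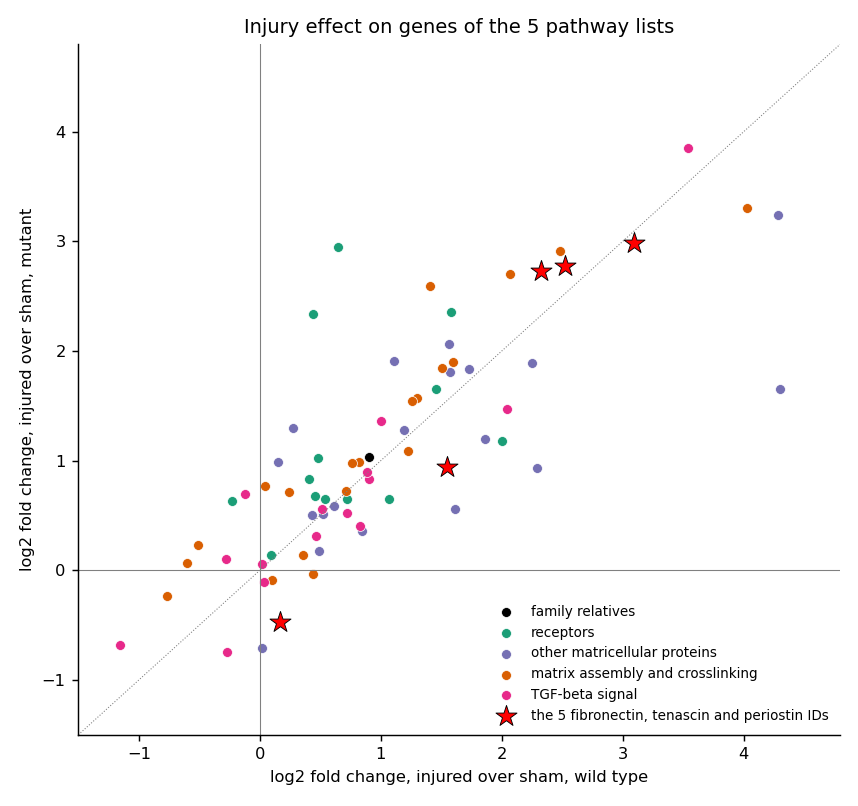
Log2 fold change after injury in wild type (horizontal) and in mutants (vertical) of the tested IDs of the 5 lists, with stars for the 5 fibronectin, tenascin and periostin genes and a dotted line where both are equal. Of the stars 4 lie at or above 0.94 on both axes, and the second TNC gene lies near the origin; both axes share no libraries.

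Between genotypes 7 of the 68 tested IDs of the 5 lists were called in sham fish, 2 higher and 5 lower in mutants, or 10.3% against 5.81% of all tested genes, and 2 in injured fish, or 2.94% against 2.56%. Over both treatments 13 of 68 were called, 5 higher and 8 lower, or 19.1% against 11.1%, of which 7 were among the 20 IDs for matrix assembly and crosslinking, 3 higher and 4 lower. In mutant sham fish ITGB1 (ENSDARG00000071863), the integrin chain of the classical fibronectin receptor, was lower (log2 -1.87, SE 0.49, edgeR adjusted p = 0.0297), a call lost in 7 of 16 fits without 1 library, at an adjusted p of up to 0.0853. Its genotype effect was log2 -1.76 in injured fish (SE 0.48, edgeR adjusted p = 0.0621) and -1.82 over both treatments (SE 0.34, edgeR adjusted p = 0.00200). The other tested ITGB1 IDs were not called in sham fish. ENSDARG00000104484 averaged 111 ± 13.8 CPM in wild-type and 103 ± 5.06 CPM in mutant sham fish. ENSDARG00000022689 and ENSDARG00000053232 had edgeR adjusted p = 0.976 and 0.620. THBS3 (ENSDARG00000012060), LOXL4 (ENSDARG00000105442), LOXL2 (ENSDARG00000044074) and emilin1a were lower, with log2 fold changes of -1.66, -2.69, -1.06 and -0.90 (edgeR adjusted p = 0.00596, 0.0162, 0.0229 and 0.0207), and P4HA1, a collagen prolyl hydroxylase gene, was higher at 0.90 (edgeR adjusted p = 0.0119). The filters on low counts kept this THBS3 ID and LOXL4 in only 23 of 24 alternative fits, and LOXL2 and emilin1a in all 24. Without 1 library the call of LOXL4 was lost in 3 of 16 fits (adjusted p up to 0.0619), that of LOXL2 in 3 of 16 (up to 0.0872) and that of emilin1a in 2 of 16 (up to 0.0788). In mutant injured fish SMAD2 was lower (log2 -0.68, edgeR adjusted p = 0.0326) and TGM2 (ENSDARG00000074094), a transglutaminase gene whose product crosslinks fibronectin, was higher (log2 0.61, edgeR adjusted p = 0.0442). Without 1 library the call of TGM2 was lost in 13 of 16 fits and that of SMAD2 in 5 of 16. These genes were named because they were called, after their values were seen.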

How the data were processed

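Per the submitters' processing notes, reads were handled with fastp 0.23.4, STAR (2.7.0 and 2.7.10) and RSEM 1.3.3; per the labels' protocols, libraries were poly(A)-selected and strand-specific. The authors deposited expected counts, which are estimated by the counting program (3.00% to 5.02% of values in a library were not whole, and 0 of those of the 5 genes). The genome build, the annotation and whether counting used strand are not given in the sources used here, so counts of paralogs and of overlapping antisense genes are uncertain. Symbols came from a table that names 29201 IDs.

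The deposited counts were rounded and tested with the quasi-likelihood test of edgeR 4.0.16 (R 4.3.3, limma 3.58.1), after filterByExpr and TMM scaling, in 1 fit of 4 group means over all libraries. The TMM factors were 0.815 to 0.947 in sham libraries and 1.00 to 1.26 in injured libraries, so they did not overlap between treatments. Benjamini-Hochberg adjustment ran over the 14986 tested genes of each of 5 contrasts, and of the added average over treatments. CPM are per 1000000 counts. Paralog ratios are differences of log2(CPM + 1), tested by exact two-sided permutation of libraries. Correlations used log2 CPM with a prior count of 2. Of these procedures, the edgeR test was tried on simulated data. DESeq2 1.42.0 and other settings were run as alternatives.

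Groups and replicate numbers come from sample titles. Counts within a group differed by 8.25 to 39.2 times sampling noise (chi-square per degree of freedom).

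The 5 genes and the lists were chosen with earlier results of these data known. From each list the rule names the 3 genes with the largest rise and the 2 with the largest fall called for injury in wild type with a mean of at least 10 CPM in 1 of the 2 wild-type groups compared, and for each of the 5 genes the 3 most similar genes. Of the genes so named, 1 is not reported here.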

Additional observations from a re-analysis of the deposited data

Results flagged for a closer look

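The second TNC gene (ENSDARG00000078362) had 1 library far from the rest of its group. In sham wild type, replicate 3 had 3.91 CPM from 19 counts, and the other libraries had 0.342, 0.794 and 0.171 CPM from 2, 5 and 1 counts. Its gap to the nearest library was 0.833 of the range of the group, above Dixon's 95% critical value for 4 libraries. This was 1 of 24 gene and group combinations examined, counting the other POSTN gene. For normally distributed values chance alone would give about 1 in 20, a rate that may not hold for CPM from counts this low. The rule was not applied on the log2 scale. There replicates 1 to 4 deviated from the group mean by -0.78, 0.03, 2.00 and -1.25. Sham wild-type replicate 3 was the lowest of its group for the first FN1 gene, at 47.9 CPM, and for the second FN1 gene, at 593 CPM. Leaving out 1 library at a time moved the log2 injury effect on the second TNC gene in wild type between -0.21 and 1.62, with an edgeR adjusted p never below 0.104.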

How the results depend on the processing

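The injury calls of both FN1 genes, the first TNC gene and POSTN held with DESeq2, RLE scaling, no scaling factor, both other filters, fits of the compared groups, the replicate block and without any 1 library; against a minimum log2 fold change of 1 they held except for the second FN1 gene in mutants. Calls between genotypes were less stable, and where not stated the cause was not tested. DESeq2 called 678 genes between genotypes in injured fish, or 3.67% of those it gave an adjusted p, and 2 of the 5. In sham fish it called 6.91% of such genes and 1 of the 5, and for the interaction 43 genes. The summed TNC pair in injured fish was at 1.23 (DESeq2 adjusted p = 0.0308). Without a scaling factor edgeR called the second FN1 gene in injured fish (log2 -0.80, adjusted p = 0.0399), beside the first TNC gene. The first FN1 gene over both treatments was then at -0.038 and emilin1a after injury in mutants at 0.16. This setting moved the median of all genes by 0.46 on the log2 scale for injury in wild type and 0.36 in mutants. With no filter POSTN was called in sham fish (edgeR adjusted p = 0.0368), and 10 genes for the interaction. With the compared groups alone 198 genes were called in injured fish, the first TNC gene no longer among them. In sham fish POSTN was then called (edgeR adjusted p = 0.0368). Against the minimum fold, which asks for more by construction, 548 genes were called for injury in wild type and 588 in mutants. Between genotypes 78 were called in sham fish, 32 in injured fish and 120 over both treatments. The first TNC gene and POSTN then lost their calls between genotypes. With a pseudocount of 5 the TNC ratio between genotypes in sham fish was 0.0021 and the POSTN ratio after injury 0.68 (exact permutation, adjusted 0.0478).

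Leaving out 1 library at a time gave 559 to 952 genes called between genotypes in sham fish, where of the 5 only POSTN was ever called. In injured fish it gave 208 to 534 genes, where of the 5 only the first TNC gene or the second FN1 gene was ever called. For the interaction it gave 0 to 6 genes. On the log2 scale the first FN1 gene ran from -0.14 to 0.38 between genotypes in sham fish, from -0.18 to 0.11 in injured fish, from -0.40 to 0.12 for the interaction and from -0.084 to 0.18 over both treatments, and the second FN1 gene from -0.23 to 0.088 in sham fish. The second TNC gene ran from -0.21 to 1.62 for injury in wild type and from -0.21 to 0.48 between genotypes in injured fish. The summed FN1 pair ran from -0.22 to 0.12 in sham fish, and the summed TNC pair from 0.74 to 1.5 in sham fish, from 0.89 to 1.55 in injured fish and from -0.29 to 0.63 for the interaction. The TNC ratio ran from -0.56 to 0.15 between genotypes in sham fish, the FN1 ratio from 0.36 to 0.54 over both treatments, and the POSTN ratio from -0.48 to 0.10 in sham fish, from -0.023 to 0.43 in injured fish, from -0.14 to 0.15 over both treatments and from 0.52 to 0.81 after injury over both genotypes.

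Same-numbered libraries of different groups had a median correlation of deviations of 0.0228, and 5 of 24 pairs were above 0.1. Differently numbered libraries had a median of -0.00897, and 12 of 72 pairs were above 0.1. Libraries correlated best with their own number in 14 of 48 combinations of library and other group, each with 4 libraries to choose from. The replicate numbers were therefore not taken to pair samples. With the replicate number as a block, 745 genes were called between genotypes in sham fish and 314 in injured fish, and as many of the 5 genes were called in each contrast as without it.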
